A study of Mus musculus with 9 samples.

Results

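The genes described here are 10 that build, load and oxidise acylceramide, the lipid that seals the outer layer of the epidermis, together with the epidermal lipoxygenases. They were chosen by gene symbol (Elovl4, Slc27a4, Cyp4f39, Cers3, Pnpla1, Abhd5, Abca12, Alox12b, Aloxe3 and Alox12e), and all 10 were found among the 23282 entries of each count table. RNA from whole back skin was sequenced as 3′ tags in wild-type C57BL/6 (B6) mice in 3 groups of 3 libraries. The first group was tape-stripped skin, in which adhesive tape peels off the outer layers, treated with NGO cream, which holds graphene oxide in nano-sized form (50 µg in 100 µL per mouse), called NGO-treated skin below. The second was tape-stripped skin with control cream (stripped control skin) and the third was skin with no stripping, labelled as control cream (unstripped skin). Skin was taken 24 h after treatment. The protocol places cream on the stripped area alone, so what the unstripped skin received is not settled by the labels, and the age and sex of the mice and the number of animals are not given in the sources used here. The p-values therefore measure the spread between these libraries, which may be partly technical. By its title the series is about acute inflammation of the skin and a graphene oxide cream.

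Acylceramides are ceramides with an ultra-long fatty acid whose far end carries a linoleic acid. Keratinocytes of the upper epidermis make them by elongating, activating and hydroxylating the fatty acid, joining it to a sphingoid base and adding linoleate, and then pack them into lamellar bodies for secretion. Lipoxygenases oxidise the linoleate, a step that comes before the ceramide is bound to the protein envelope of the dead outer cells. In humans, inherited loss of many of these genes causes ichthyosis, a scaling skin disease with a leaky barrier.

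Total counts ran from 2997238 to 6303322 in NGO-treated libraries, from 2019739 to 4053655 in stripped control libraries and from 2794791 to 2937738 in unstripped libraries. Levels are CPM, the counts edgeR scales to a common library size with TMM factors, and 3 counts summed over a group equal 0.22 CPM in NGO-treated, 0.369 CPM in stripped control and 0.310 CPM in unstripped skin. Such floors cover counting error alone. Replicates differed most in stripped control skin, with a biological coefficient of variation of 0.83 in NGO-treated, 1.09 in stripped control and 0.46 in unstripped skin. When replicates were taken in pairs, the share of genes with a pair mean of 10 CPM or more that had 0 counts in 1 library was 0.873% to 1.13% in NGO-treated, 3.99% to 7.5% in stripped control and 0.0207% to 0.137% in unstripped skin. A panel of 25 pan-keratinocyte genes took 3.07% ± 0.595 of counts in NGO-treated, 0.324% ± 0.0861 in stripped control and 3.68% ± 0.766 in unstripped skin (SD, n = 3 each). Of the panel Cldn4 was at 0 in stripped control skin, and no other panel gene was at 0 in a group. The 25 skeletal muscle markers took 2.60% to 5.46%, 4.997% to 11.3% and 0.0289% to 0.204% in those groups, and none was at 0 in any group. In whole skin, fewer keratinocytes and less of a transcript per keratinocyte cannot be told apart.

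The start regions of 4 of the 7 genes that were lower in stripped control skin are shown as examples. Those of Pnpla1 and Slc27a4, also lower there, are not shown, and Aloxe3 had no start region in the RefSeq table. Each line is the 250 bases before the RefSeq start site (GRCm38.p6, the build named mm10 in the submitters' notes), written 5′ to 3′ on the strand of the gene. The gene coordinates given below come from another annotation, in which Alox12b and Alox12e start further upstream. The Alox12b box at -19 and the Alox12e box at -42 from the RefSeq start lie inside those coordinates. Capitals mark the GC box bound by SP1-type factors (GGGCGG on either strand), and the neighbouring boxes of Elovl4 overlap.
Alox12b, chr11:69156822-69157071, plus strand: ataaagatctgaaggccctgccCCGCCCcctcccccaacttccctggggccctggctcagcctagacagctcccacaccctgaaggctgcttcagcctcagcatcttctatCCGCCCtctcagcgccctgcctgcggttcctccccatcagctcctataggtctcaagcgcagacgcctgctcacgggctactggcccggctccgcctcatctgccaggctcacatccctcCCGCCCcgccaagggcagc
Alox12e, chr11:70322531-70322780, minus strand: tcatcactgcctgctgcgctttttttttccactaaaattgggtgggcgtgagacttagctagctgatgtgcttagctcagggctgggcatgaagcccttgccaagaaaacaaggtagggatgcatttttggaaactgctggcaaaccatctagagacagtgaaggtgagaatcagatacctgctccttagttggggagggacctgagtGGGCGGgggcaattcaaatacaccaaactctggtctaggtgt
Elovl4, chr9:83806306-83806555, minus strand: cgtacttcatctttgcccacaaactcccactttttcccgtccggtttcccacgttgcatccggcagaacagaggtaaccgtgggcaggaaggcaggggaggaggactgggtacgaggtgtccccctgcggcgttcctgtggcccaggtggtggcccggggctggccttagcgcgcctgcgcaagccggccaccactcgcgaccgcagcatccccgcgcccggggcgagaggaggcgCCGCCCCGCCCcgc
Cyp4f39, chr17:32452473-32452722, plus strand: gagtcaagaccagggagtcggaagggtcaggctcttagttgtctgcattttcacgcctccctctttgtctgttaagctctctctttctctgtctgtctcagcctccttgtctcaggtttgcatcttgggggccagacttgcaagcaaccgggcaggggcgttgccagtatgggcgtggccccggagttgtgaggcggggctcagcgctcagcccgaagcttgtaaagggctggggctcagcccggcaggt
Of the 10 genes, 9 had a start region in the RefSeq table. The GC box was found in 5 of these 9 (Slc27a4, Elovl4, Abhd5, Alox12b and Alox12e), against 32.7% of 32851 start regions of the same length. The AP-1 letters TGANTCA, the GRHL letters AACNGGTT, the TATA letters TATAAA, the E-box letters CACGTG and the C/EBP letters TTGCNNAA, each searched on both strands, were in 0 of the 9, against 6.75%, 1.79%, 12.4%, 6.02% and 9.56% of all start regions. These matches describe letters in this window alone.

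The first comparison, stripped control against unstripped skin, asked what stripping did to these genes. Of the 10 genes 7 were lower and 0 were higher (edgeR quasi-likelihood test, adjusted p under 0.05), against 7.64% of 13740 genes tested that were lower and 5.97% that were higher. Scaled to the keratinocyte panel, 3 of the 10 were lower and 0 higher, against 1.32% and 56% of all genes, and 5 of the other genes changed sign without passing. The median log2 difference was -3.80 over the 10 genes, with genes at 0 set at their bound, and -0.20 over all genes tested. Groups did not overlap for 9 of the 10, each lower in stripped control skin, against 24.7% of all genes. Alox12b, Alox12e, Cyp4f39 and Pnpla1 had 0 counts in all 3 stripped control libraries, which was true of 1.77% of the 9570 genes averaging at least 10 CPM in unstripped skin. All 10 genes averaged at least 10 CPM there, and none was at 0 in all NGO-treated libraries, as 0.125% of those genes were. Every gene passed the low-count filter, Alox12b and Abca12 through the unstripped libraries alone. Of the 10, Elovl4 and Slc27a4 alone reached it in stripped control skin as well. The others, among them every gene at 0 there, passed only through the other groups. Zeros were not particular to the 10 genes. Of 41 measured genes of the protein envelope and late differentiation, 9 were also at 0 in all stripped control libraries. Among these were Krt77, Casp14 and Ivl, with means of 73.7, 58.3 and 30.8 CPM in unstripped skin. Rptn (0.0983 CPM) and Lypd5 (0.590 CPM), also among the 9, were low in unstripped skin too.

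The second comparison set NGO-treated against stripped control skin, the question of the series title, and it uses the same stripped control libraries. Here 6 of the 10 genes were higher and 0 were lower, against 3.87% of all genes tested that were higher and 1.18% that were lower. Scaled to the keratinocyte panel, 3 of the 10 were higher and 1, Cers3, was lower, against 0.815% and 57% of all genes. The median log2 difference was 3.20, with genes against a group at 0 set at their bound, and 0.07 over all genes. Groups did not overlap for 7, each higher in NGO-treated skin, against 16.3% of all genes. With limma-voom, and in a fit of the compared groups alone, 2 genes passed (Elovl4 and Cyp4f39). In the third comparison, NGO-treated against unstripped skin, 1 gene was lower (Alox12e) and 0 were higher, against 0.451% and 2.06% of all genes, and 0 genes passed without unstripped replicate 1 or when scaled to the panel (0.146% of all genes lower and 2.15% higher on that scale). Groups did not overlap for 2 of the 10, Alox12e and Cers3, both lower in NGO-treated skin, against 14.4% of all genes.

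**Figure D1:**
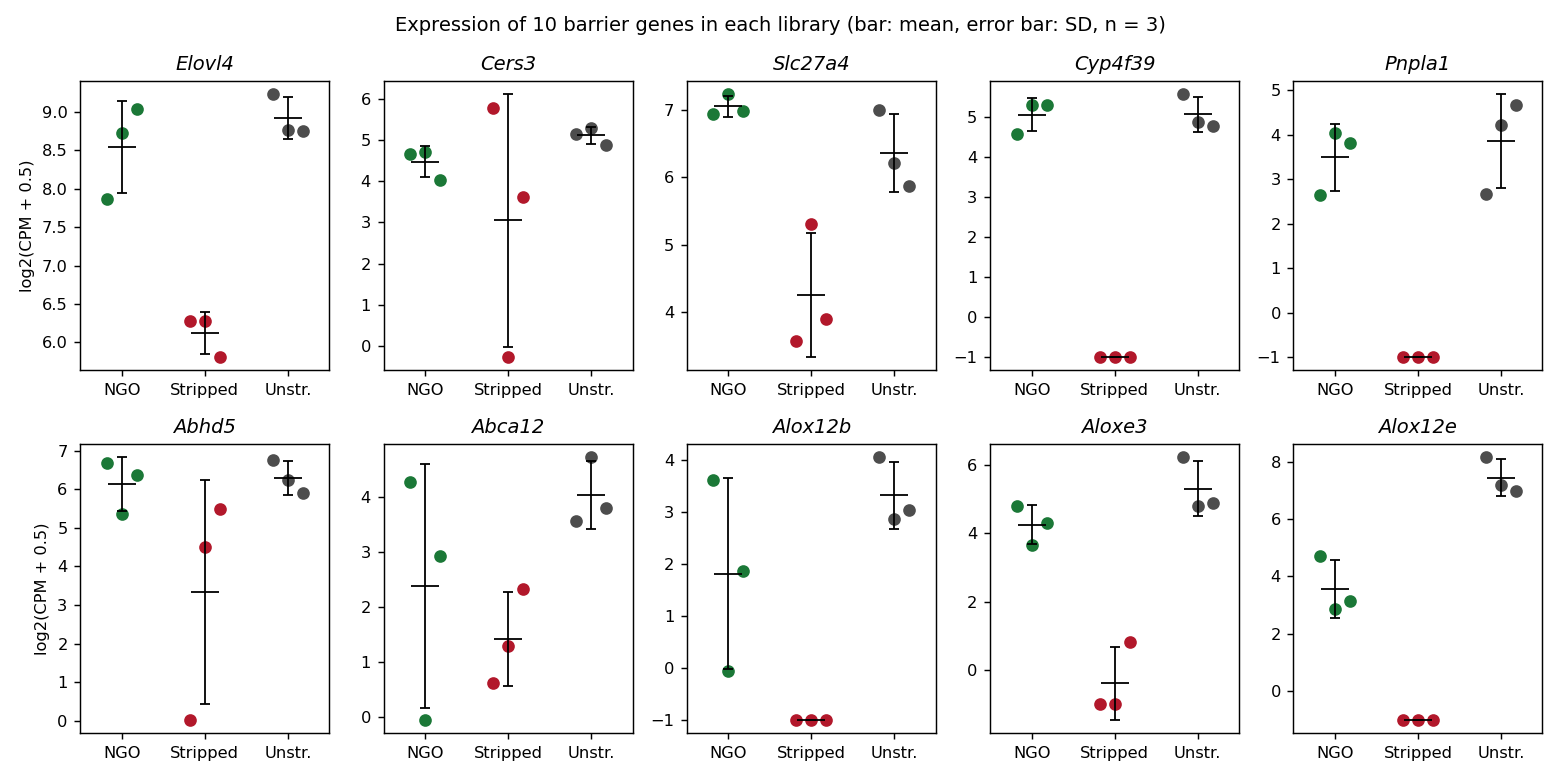
Each panel plots log2(CPM + 0.5) of 1 gene in every library of NGO-treated (NGO), stripped control (Stripped) and unstripped (Unstr.) skin, with each panel on its own axis. Dots are libraries in replicate order, the bar is the mean and the error bar the SD of 3 libraries. Elovl4 is lower in every stripped control library than in any other library, Cyp4f39, Pnpla1, Alox12b and Alox12e are at 0 in all 3 stripped control libraries, and the stripped control libraries of Cers3 and Abhd5 are spread widely.

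Elovl4 elongates fatty acids to the ultra-long chains that acylceramides need (mm10 chromosome 9, 83778692 to 83806277, minus strand). It had 233, 422 and 525 CPM in NGO-treated libraries, 77.1, 77.0 and 55.6 CPM in stripped control libraries and 599.9, 434 and 430.3 CPM in unstripped libraries. All 3 stripped control values lay below every other library, and the NGO-treated and unstripped values overlapped. Stripped control minus unstripped skin gave a log2 fold change of -2.80 ± 0.36 (SE, n = 3 libraries each, edgeR adjusted p = 0.00019), and NGO-treated minus stripped control skin gave 2.49 ± 0.35 (edgeR adjusted p = 0.00236). The difference between NGO-treated and unstripped skin was -0.31 (95% interval -1.03 to 0.40, edgeR adjusted p = 0.897). Elovl4 passed in both of the first comparisons in all 9 fits that left out 1 library.

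Slc27a4 encodes a fatty acid transport protein with acyl-CoA synthetase activity that activates long fatty acids (chromosome 2, 29802634 to 29817522, plus strand). Its levels were 122, 149.7 and 126 CPM in NGO-treated, 11.4, 39.0 and 14.5 CPM in stripped control and 127, 73.7 and 58.1 CPM in unstripped libraries. The stripped control values were the lowest, and NGO-treated values overlapped with the unstripped value of replicate 1. It fell with stripping by 1.98 ± 0.51 on the log2 scale (edgeR adjusted p = 0.0192), a call lost without unstripped replicate 1 (0.0921) or stripped control replicate 3 (0.0673), in limma-voom (0.0927) and in the fit of the compared groups (0.0668). With NGO it was higher than in stripped control skin by 2.605 ± 0.52 (edgeR adjusted p = 0.014). Against unstripped skin NGO-treated skin was at 0.62 (95% interval -0.42 to 1.67), the one fitted value above 0 among the 10 genes in that comparison.

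Cyp4f39, the mouse counterpart of human CYP4F22, puts the terminal hydroxyl group on the ultra-long fatty acid (chromosome 17, 32452723 to 32493320, plus strand). NGO-treated libraries had 23.2, 38.4 and 38.8 CPM, stripped control libraries 0 counts each, and unstripped libraries 46.8, 28.9 and 26.5 CPM. The transcript was thus seen in every NGO-treated and unstripped library and in no stripped control library. It was at least 92.2-fold lower in stripped control than in unstripped skin (edgeR adjusted p = 0.000383) and at least 90.6-fold higher in NGO-treated than in stripped control skin (edgeR adjusted p = 0.00236), both bounds against 3 counts over the group. NGO-treated minus unstripped skin was -0.02 on the log2 scale, with a 95% interval from -1.59 to 1.54. Both calls against stripped control skin held in all 9 fits that left out 1 library.

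Cers3 is the ceramide synthase that joins the ultra-long fatty acid to the sphingoid base (chromosome 7, 66743504 to 66823691, plus strand). Its NGO-treated values were 25.1, 25.9 and 15.97 CPM, its stripped control values 54.8, 0.325 and 11.9 CPM and its unstripped values 35.1, 39.2 and 29.2 CPM. The stripped control libraries held 106, 1 and 37 counts, so 1 library was above and the others below all remaining libraries. Neither comparison with stripped control skin passed, with log2 differences of -0.64 ± 1.03 after stripping (edgeR adjusted p = 0.765) and 0.0089 ± 1.03 with NGO (edgeR adjusted p = 1). All 3 NGO-treated values lay below the unstripped values, but the difference of -0.63 (95% interval -2.84 to 1.58) did not pass either.

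Pnpla1 transfers linoleate to the hydroxylated ceramide and so completes the acylceramide (chromosome 17, 28858411 to 28890309, plus strand, overlapped at an exon by the antisense gene Pnpla1os). NGO-treated libraries had 5.74, 15.96 and 13.5 CPM, stripped control libraries 0 counts, and unstripped libraries 5.85, 18.3 and 25.1 CPM. Replicate 1 was the lowest in NGO-treated and in unstripped skin alike. Pnpla1 was at least 44.4-fold lower in stripped control than in unstripped skin (edgeR adjusted p = 0.00996). In NGO-treated skin it was at least 31.7-fold higher than in stripped control skin (edgeR adjusted p = 0.0304), a call lost without unstripped replicate 2 or 3 or any 1 of the NGO replicates (up to 0.0758). The difference from unstripped skin was -0.48 (95% interval -3.10 to 2.14).

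Abhd5 encodes a lipase cofactor that serves Pnpla1 in the epidermis and triglyceride breakdown in fat and muscle (chromosome 9, 122351608 to 122381524, plus strand). Its levels were 103, 40.3 and 82.9 CPM in NGO-treated, 0.517, 22.1 and 44.7 CPM in stripped control and 108, 74.6 and 59.2 CPM in unstripped libraries. Stripped control skin lay below unstripped skin in every library but overlapped with NGO-treated skin, and its replicates held 1, 68 and 139 counts. No comparison passed, with -1.83 ± 0.84 after stripping (edgeR adjusted p = 0.174), 1.73 ± 0.84 with NGO (edgeR adjusted p = 0.254) and -0.10 against unstripped skin (95% interval -1.83 to 1.64). The antisense gene A730085K08Rik overlaps the 3′ end of Abhd5, and the counting is not stated to use strand. It had 8 counts in 1 unstripped library and 0 in the others.

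Abca12 is the transporter that loads ceramide precursors into lamellar bodies (chromosome 1, 71242276 to 71414910, minus strand). It had 19.0, 0.463 and 7.15 CPM in NGO-treated, 1.03, 1.95 and 4.50 CPM in stripped control and 11.4, 26.2 and 13.6 CPM in unstripped libraries. Stripped control values lay below all unstripped values, while NGO-treated replicate 2, with 2 counts, was the lowest of all 9 libraries. None of its differences passed, with -2.74 ± 1.39 after stripping (edgeR adjusted p = 0.222), 1.80 ± 1.35 with NGO (edgeR adjusted p = 0.489) and -0.94 against unstripped skin (95% interval -3.74 to 1.85).

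The lipoxygenases Aloxe3 and Alox12b act in sequence on the linoleate of acylceramide, Alox12b making a hydroperoxide and Aloxe3 converting it. Their genes are neighbours on the plus strand of chromosome 11 (69125896 to 69149115 and 69156989 to 69169792), 7873 bases apart with 0 protein-coding genes between them. Alox12b had 11.8, 0.463 and 3.16 CPM in NGO-treated, 0 counts in stripped control and 16.2, 6.78 and 7.66 CPM in unstripped libraries. NGO-treated replicate 2 held 2 Alox12b counts (95% counting interval 0.242 to 7.22) where replicate 1 held 39 (27.7 to 53.3). Alox12b was at least 27.6-fold lower after stripping (edgeR adjusted p = 0.0426), a call that held without NGO replicate 2 and was lost when any other single library was left out (up to 0.131). With NGO its mean was 13.9-fold above 3 counts in stripped control skin, a value that leaves out the spread of the NGO-treated libraries. The difference did not pass (edgeR adjusted p = 0.101).

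Aloxe3 had 27.2, 12.03 and 19.3 CPM in NGO-treated, 0, 0 and 1.29 CPM in stripped control and 74.3, 27.1 and 28.9 CPM in unstripped libraries. Every stripped control value lay below every other library, and the highest NGO-treated value was just above the lowest unstripped value. It fell by 6.43 ± 1.23 on the log2 scale after stripping (edgeR adjusted p = 0.00308) and was higher with NGO than in stripped control skin by 5.28 ± 1.18 (edgeR adjusted p = 0.0247). The second call was lost without unstripped replicate 1 or NGO replicate 1 or 3 (up to 0.0777). Both folds rest on 4 counts in stripped control replicate 3, without which that group is at 0 and the fitted values, which then depend on the prior count, were -10.23 and 9.12. NGO-treated minus unstripped skin was -0.99 (95% interval -4.53 to 2.55) for Alox12b and -1.15 (-3.14 to 0.83) for Aloxe3, and neither passed.

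Alox12e, the epidermal-type lipoxygenase of mice, lies 1145817 bases beyond Alox12b on the minus strand (chromosome 11, 70315610 to 70322628). It had 25.7, 6.71 and 8.32 CPM in NGO-treated libraries, 0 counts in each stripped control library and 287, 144 and 126 CPM in unstripped libraries. The groups were fully separate, with NGO-treated skin between the others. Alox12e was at least 502.9-fold lower in stripped control than in unstripped skin (edgeR adjusted p = 6.67e-05) and at least 36.7-fold higher in NGO-treated than in stripped control skin (edgeR adjusted p = 0.0037). It was the 1 gene of the 10 that passed between NGO-treated and unstripped skin, lower by a log2 difference of -3.78 ± 0.64 (95% interval -5.19 to -2.38, edgeR adjusted p = 0.00766). That call was lost without unstripped replicate 1, the library with the highest value (-3.33, edgeR adjusted p = 0.0568).

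**Figure D2:**
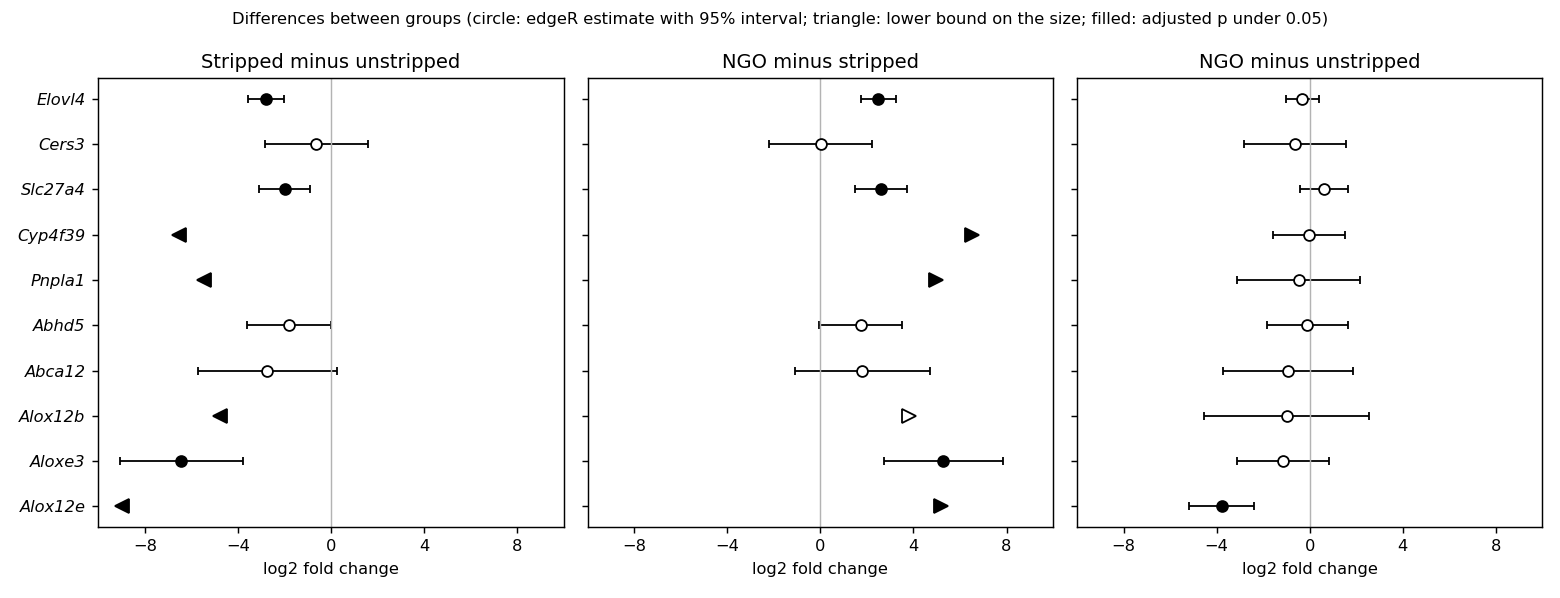
Log2 fold changes of the 10 genes in the 3 comparisons on a common axis. Circles are edgeR estimates with 95% intervals, triangles are lower bounds on the size where 1 group had 0 counts, and filled symbols passed at adjusted p under 0.05. Triangles rest on the mean of the other group and leave out its spread. In the left panel 7 symbols are filled and lie below 0, in the middle panel 6 are filled and lie above 0, and in the right panel Alox12e alone is filled, at -3.78; scaled to the keratinocyte panel, the sign of Elovl4, Slc27a4, Abhd5, Abca12 and Cers3 turned in the left panel and the middle one.

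Because the keratinocyte panel made up far less of the stripped control libraries, each gene was also expressed per 1000 panel counts. This scaling moved the median of all genes to 2.89 in stripped control against unstripped skin and to -2.86 in NGO-treated against stripped control skin. Elovl4 then stood at 14.0 ± 6.19 in NGO-treated, 18.4 ± 1.49 in stripped control and 14.9 ± 1.22 in unstripped skin (SD, n = 3 each), and its difference after stripping was 0.31 ± 0.42 on the log2 scale (edgeR adjusted p = 0.519). Alox12e stood at 0.442 ± 0.283 in NGO-treated, 0 in stripped control and 5.41 ± 1.12 in unstripped skin. In the fit on this scale Alox12e (edgeR adjusted p = 0.000278), Cyp4f39 (0.0102) and Pnpla1 (0.0332) were lower in stripped control than in unstripped skin, and the same genes were higher with NGO than in stripped control skin (0.00766, 0.00883 and 0.0409).

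Counts at a fixed ratio to the panel allow for depth alone. They leave out the wide spread between stripped control replicates and so cannot settle the zeros. At the ratio of unstripped skin, the stripped control libraries together would have held 167 counts of Alox12e, 31.4 of Cyp4f39, 17.2 of Pnpla1 and 9.10 of Alox12b, and they held 0 of each. For Aloxe3 they held 4 counts where the unstripped ratio gives 38.1. Elovl4 had 559 counts where the ratio gives 459, and Slc27a4 187 where it gives 78.5. Cers3 and Abhd5 had 144 and 208 counts where the ratio gives 33.6 and 74.8, but 1 library held 106 of the 144 and another 139 of the 208. Abca12 had 22 counts where the ratio gives 17.5. In NGO-treated skin the same ratio gives 2159 counts of Alox12e, and 164 were seen. Slc27a4 with 1807 counts against 1014, Cyp4f39 with 476 against 406 and Abhd5 with 1012 against 966 lay above this ratio. The remaining genes lay below it, with 5752 against 5933 for Elovl4, 169 against 222 for Pnpla1, 291 against 433 for Cers3, 258 against 492 for Aloxe3, 60 against 118 for Alox12b and 108 against 226 for Abca12.

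**Figure D3:**
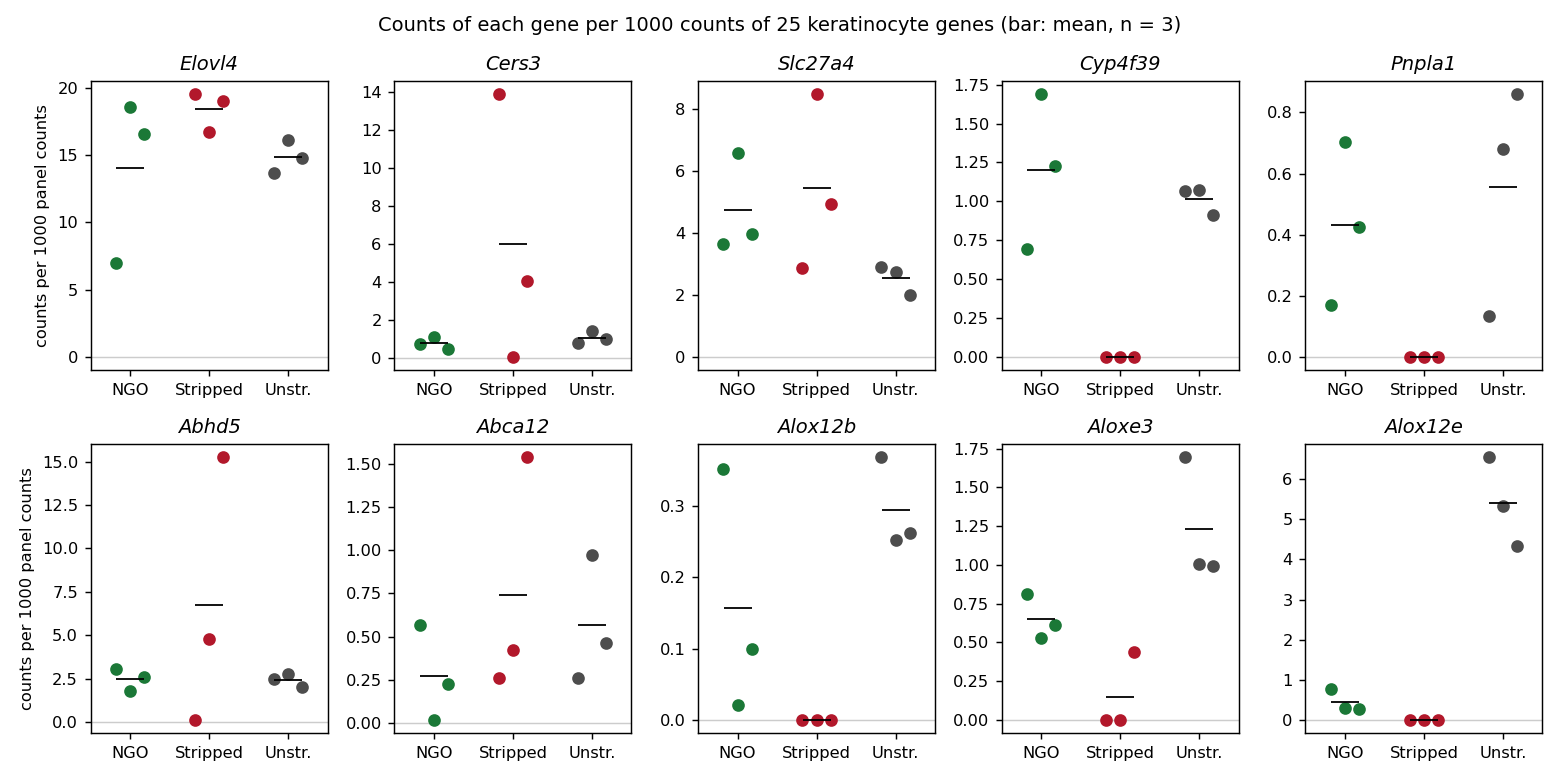
Each panel plots the counts of 1 gene per 1000 counts of the 25 keratinocyte genes in every library of NGO-treated (NGO), stripped control (Stripped) and unstripped (Unstr.) skin, with the bar at the mean of 3 libraries and each panel on its own axis. Elovl4 lies between 6.99 and 19.5 in all 9 libraries, Cyp4f39, Pnpla1, Alox12b and Alox12e are at 0 in stripped control skin, and Alox12e is at most 0.769 in NGO-treated and at least 4.33 in unstripped skin.

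Within groups, the genes did not share 1 order of libraries. NGO-treated replicate 1 had the highest levels of Alox12b, Aloxe3, Alox12e, Abca12 and Abhd5 and the lowest of Elovl4, Cyp4f39, Pnpla1 and Slc27a4 in its group. Of the counts of all 10 genes, Elovl4 took 39.2% in that library, against 59.3% and 62.5% in the other NGO-treated libraries. In unstripped skin replicate 1 had the highest Alox12b, Aloxe3, Alox12e, Cyp4f39, Elovl4, Abhd5 and Slc27a4 and the lowest Pnpla1 and Abca12. It also had the highest share of the keratinocyte panel in its group, 4.55% against 3.12% and 3.37%. Library sizes that leave out muscle, adipocyte, hair and red blood cell genes and the ribosomal RNA precursor Rn45s left the counts of genes called at 7, 6 and 1 in the 3 comparisons.

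The other genes of barrier lipid synthesis, 45 tested genes of sphingolipid and fatty acid synthesis, were counted on both scales. In stripped control against unstripped skin 8 were lower and 3 higher with a median log2 difference of -1.51. Over all genes 7.64% were lower and 5.97% higher, so the 3 higher were near the share of all genes. Scaled to the keratinocyte panel 0 were lower and 19 higher with a median of 1.76. On that scale 56% of all genes were higher. Elovl6, an elongase of shorter chains, had 132 ± 29.6 CPM in NGO-treated, 3.88 ± 3.41 in stripped control and 138 ± 20.2 in unstripped skin (SD, n = 3 each). It fell by 5.07 ± 0.70 after stripping (edgeR adjusted p = 0.000339). Fa2h, which hydroxylates the fatty acids of ceramides, had 16 counts in stripped control skin, all in replicate 3, and fell by 5.30 ± 1.07 (edgeR adjusted p = 0.00444). Without that library the group is at 0 and the fitted value, which then depends on the prior count, was -11.03. Elovl1, an elongase of saturated very long chains, fell by 2.09 ± 0.44 (edgeR adjusted p = 0.00618), with Elovl1 at 1.05 when scaled to the panel.

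With NGO 4 of these 45 were higher than in stripped control skin and 0 were lower, against 3.87% and 1.18% of all genes. Scaled to the panel 0 were higher and 24 lower, as were 57% of all genes. Elovl6 was higher by 4.999 ± 0.70 (edgeR adjusted p = 0.00236), Fa2h by 5.49 ± 1.07 (0.0127) and Hsd17b12, a reductase of the elongation cycle, by 1.69 ± 0.34 (edgeR adjusted p = 0.0149). The Hsd17b12 call did not hold without NGO replicate 1 or 3 (up to 0.0638), and the gene was lower when scaled to the panel (-1.34, edgeR adjusted p = 0.0151). The Fa2h call was lost with limma-voom (0.0684) and in the fit of the compared groups (0.074), which also lost Hsd17b12 (0.0512), and its fitted value without stripped control replicate 3 was 11.21. Between NGO-treated and unstripped skin 1 of the 45 passed, near the 2.06% of all genes that were higher. This was Hacd1, a dehydratase of the elongation cycle known from muscle, which was higher by 3.52 ± 0.76 (edgeR adjusted p = 0.0232). Hacd1 had 47.0 ± 26.8 CPM in NGO-treated, 35.6 ± 9.39 in stripped control and 4.04 ± 2.63 in unstripped skin. Its call between NGO-treated and unstripped skin was lost without unstripped replicate 1 or 2 or NGO replicate 2 or 3 (up to 0.146). Stripped control skin was also higher than unstripped skin in Hacd1, by 3.12 ± 0.75 (edgeR adjusted p = 0.0135). The mean muscle marker share was likewise higher in NGO-treated (3.62%) and stripped control skin (8.38%) than in unstripped skin (0.117%). Between the stripped groups, however, this share was lower with NGO, while the mean of Hacd1 was higher without passing. The part of muscle in the Hacd1 result was not tested.

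Among 5 tested genes of other lipoxygenase pathways, 1 passed in any comparison, lower after stripping, as were 7.64% of all genes. Scaled to the panel, 1 was lower and 2 higher after stripping and 3 lower with NGO against stripped control skin. On that scale 56% of all genes were higher after stripping and 57% lower with NGO. Alox5, which starts leukotriene synthesis, had 2.64 ± 1.996 CPM in NGO-treated, 0 counts in stripped control and 11.3 ± 3.92 CPM in unstripped skin. It was at least 30.6-fold lower after stripping (edgeR adjusted p = 0.032), a call lost without any 1 unstripped replicate or stripped control replicate 2 or 3 (up to 0.128) and with the replicate block (0.0745).

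Genes of the protein envelope and late differentiation are expressed in the same upper layers. Of 37 tested, 20 were lower and 0 higher after stripping, against 7.64% and 5.97% of all genes. With NGO against stripped control skin 11 were higher and 0 lower, against 3.87% and 1.18%. In NGO-treated against unstripped skin 5 were lower and 0 higher, against 0.451% and 2.06%. Scaled to the panel these counts were 10 lower and 2 higher, 4 lower and 3 higher, and 4 lower and 0 higher, against 1.32% and 56%, 57% and 0.815%, and 0.146% and 2.15% of all genes. Krt1, a keratin of the suprabasal layers, had 64.6 ± 26.8 CPM in NGO-treated, 0.867 ± 1.501 in stripped control and 584 ± 7.46 in unstripped skin. Krtdap, a secreted protein of differentiating keratinocytes, had 429 ± 104, 90.5 ± 26.6 and 1770.4 ± 251 CPM in those groups, and Calm4, a calcium-binding protein of the epidermis, 172 ± 67.6, 15.97 ± 6.24 and 696 ± 162 CPM. In NGO-treated against stripped control skin Calm4 was higher by 3.43 ± 0.41 (edgeR adjusted p = 0.000977), Krt1 by 6.03 ± 0.77 (0.00126) and Krtdap by 2.24 ± 0.32 (0.00236), with Krtdap at -0.65 and Calm4 at 0.50 (edgeR adjusted p = 0.288) when scaled to the panel. Krt1 missed the threshold in the fit of the compared groups (0.053), and its 8 counts in stripped control skin were all in replicate 2, without which its fitted value was 10.86.

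Against unstripped skin, NGO-treated skin was lower in Krt10, another suprabasal keratin, by a log2 difference of -4.81 ± 0.54 (edgeR adjusted p = 0.000363), in Krtdap by -2.04 ± 0.31 (0.0029) and in Krt1 by -3.18 ± 0.59 (0.00872). The Krt1 call was lost without NGO replicate 2 (0.0664). After stripping, Krtdap differed by -4.29 ± 0.35 (edgeR adjusted p = 1.08e-05), Calm4 by -5.44 ± 0.45 (1.1e-05) and Krt1 by -9.20 ± 0.83 (2.1e-05), with Krt1 at -13.997 without stripped control replicate 2.

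Of 30 tested transcription factors of epidermal differentiation, 11 were lower and 1 higher after stripping, against 7.64% and 5.97% of all genes. With NGO against stripped control skin 7 were higher and 0 lower, against 3.87% and 1.18%. In NGO-treated against unstripped skin 2 were lower and 1 higher, against 0.451% and 2.06%. Scaled to the panel these counts were 2 lower and 15 higher, 17 lower and 0 higher, and 0 in either direction, with 56% of all genes higher after stripping and 57% lower with NGO on that scale. Trp63 and Grhl2 belong both to these factors and to the panel, so the list and the scaling are not fully separate. Klf4, which drives barrier formation, had 283 ± 41.3 CPM in NGO-treated, 139.7 ± 17.4 in stripped control and 729.6 ± 39.8 in unstripped skin, and fell by 2.38 ± 0.28 after stripping (edgeR adjusted p = 0.000102). Gata3, a factor of keratinocytes and T cells, fell by 5.55 ± 0.76 (0.0003) and Rxra, a nuclear receptor partner, by 2.36 ± 0.34 (edgeR adjusted p = 0.000425), with Klf4 at 0.76 and Rxra at 0.81 when scaled to the panel. With NGO against stripped control skin Tfap2c was higher by 3.17 ± 0.61 (edgeR adjusted p = 0.012) and Rxra by 1.53 ± 0.33 (0.0216). Both were lost without NGO replicate 1 (up to 0.0784), and Rxra also without NGO replicate 3 (0.062). Both also missed in the fit of the compared groups (0.0712 and 0.105), and Rxra with limma-voom (0.0859). Scaled to the panel, Rxra was lower with NGO (-1.45, edgeR adjusted p = 0.0123).

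Between NGO-treated and unstripped skin Klf4 was lower, with a log2 difference of -1.37 ± 0.27 (edgeR adjusted p = 0.012), as was Hes1, a Notch target, with -1.84 ± 0.41 (0.0304), and Cebpd was higher by 1.73 ± 0.43 (edgeR adjusted p = 0.0485). Klf4 was lost without unstripped replicate 2 or 3 or NGO replicate 2 or 3 (up to 0.0748), Hes1 without those or NGO replicate 1 (up to 0.182), and Cebpd in every fit that left out 1 library except the one without stripped control replicate 1 (up to 0.31). Cebpd also missed with library sizes that leave out tissue genes (0.0523) and with the replicate block (0.0576).

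**Figure D4:**
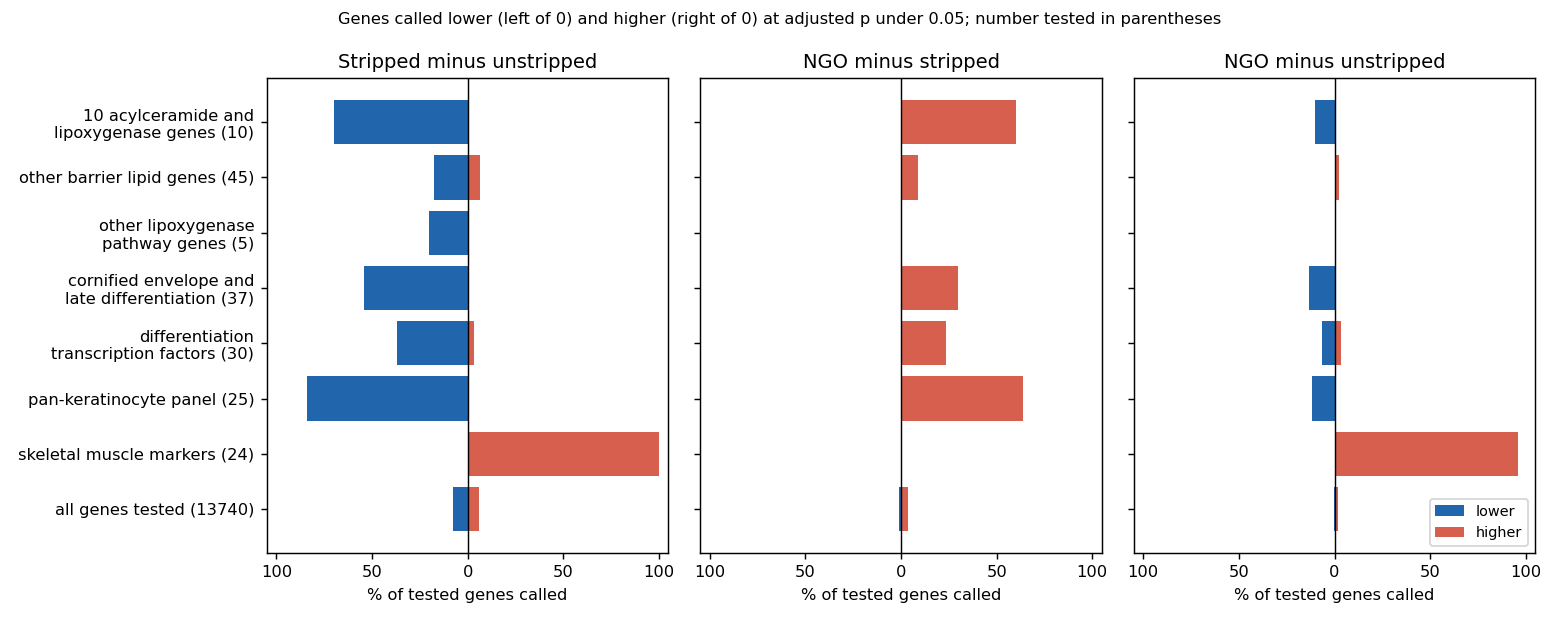
For each gene list, the percentage of tested genes called lower (left of 0) and higher (right of 0) at adjusted p under 0.05, with the number tested in parentheses and all 13740 genes at the bottom, on the CPM scale. Trp63 and Grhl2 are counted both among the transcription factors and in the panel. The 10 acylceramide and lipoxygenase genes have 7 lower, 6 higher and 1 lower in the 3 panels (3 lower, 3 higher with 1 lower, and 0 when scaled to the keratinocyte panel), and of 25 panel genes 21 were lower, 16 higher and 3 lower, while of 24 tested muscle markers 24 were higher, 0 were called and 23 were higher.

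The genes whose pattern lay nearest to these were found by the root mean square difference in centred log2 CPM over the 9 libraries from the mean profile of the 7 genes that were lower after stripping. Of the 10869 genes that reached a mean log2 CPM of 3, the nearest 8 were Itpr3, Strc, Ddb2, Slc1a4, Nrbp2, Rps6ka6, C130079G13Rik and Mycl, with differences from 0.248 to 0.474. Itpr3, an intracellular calcium release channel, had 76.4, 91.4 and 97.0 CPM in NGO-treated, 6.72, 5.20 and 7.07 CPM in stripped control and 254, 159 and 183 CPM in unstripped libraries. Within the 10, Aloxe3 was nearest to the mean profile (0.619) and Cers3 farthest (1.94). Aloxe3 is part of that mean and Cers3 is not, so the choice of genes partly set this order. This likeness is a description of 9 libraries in 3 groups and was not tested.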

How the data were processed

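Back skin was profiled in 9 libraries, 3 each of NGO-treated, stripped control and unstripped skin, grouped by their titles. Per the labels' protocols, Lexogen QuantSeq libraries were made from 500 ng of Trizol-extracted RNA. The authors deposited whole-number counts per gene symbol, in a table for each library. The submitters' processing notes name Bowtie2, bedtools and the mm10 build and no versions. Rules for strand, overlapping genes and reads with several matches are not given in the sources used. Each table held 23282 entries (23238 unique symbols, repeats kept apart), all naming a gene, and 95.5% of symbols matched GENCODE M21, the source of the mm10 coordinates. Start regions came from RefSeq (GRCm38.p6).

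Counts were tested in R 4.3.3 with the edgeR 4.0.16 quasi-likelihood test (robust), TMM factors and filterByExpr, with group as the factor over all 9 libraries, so that the spread was estimated over them together. Benjamini-Hochberg adjustment covered all 13740 genes, and an adjusted p under 0.05 counted as a call. Log2 fold changes carry their standard error or a 95% interval. A fold against a group at 0 is a lower bound, computed against 3 counts in that group. It uses the mean of the other group and does not cover the spread between the libraries of that group. An exact two-sided permutation test of 3 libraries against 3 cannot go below 0.1 and was not used. No 2 replicates were identical or within sampling noise (chi-square per degree of freedom at least 7.59). The script was tested on simulated data. Alternatives were RLE and upper-quartile scaling, library sizes without tissue genes, scaling to the keratinocyte panel, no or a stricter filter (20 counts in 3 libraries), DESeq2 1.42.0, limma-voom (limma 3.58.1), a replicate block, fits of the compared groups and leaving out each library.

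The 10 genes and the lists were chosen with earlier results of these data known. Named besides the 10 were, per list and comparison, the 3 called genes with the smallest p, and the 8 genes nearest in pattern. A further gene that this rule named is not reported here.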

Additional observations from a re-analysis of the deposited data

How the results depend on the processing

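Between 5 and 7 of the 10 genes were lower after stripping in the fits that left out 1 library, 4 to 6 were higher with NGO against stripped control skin, and 0 to 1 were lower in NGO-treated than in unstripped skin. The counts over all genes ran from 1159 to 2124, from 206 to 929 and from 214 to 495 in the same fits. Scaling to the keratinocyte panel gave 3 of the 10 after stripping, 4 with NGO (3 higher and 1 lower) and 0 against unstripped skin, with 7878 (7696 higher) and 7943 (7831 lower) of all genes called in the first 2 comparisons. Limma-voom and the fit of the compared groups each gave 2 of the 10 with NGO, and over all genes 414 and 118. Over all genes DESeq2 called 2976, 1721 and 757, and against unstripped skin limma-voom called 1353 and the fit of the compared groups 602. Of the calls over all genes after stripping, 43.9% were higher, 54.3% with limma-voom and 97.7% with the panel scaling. Of those with NGO against stripped control skin, 76.7% were higher, 66.6% with RLE scaling, 60.6% with DESeq2, 47.1% with limma-voom and 1.41% with the panel scaling. In that last comparison Alox12b passed with DESeq2 (adjusted p = 0.0196), and it was not tested in the fit of the compared groups. The cause of these differences was not tested.

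Scaling to the panel by construction moves every gene. Relative to unstripped skin, stripped control skin then had log2 differences of 0.39 for Abca12, 0.31 for Elovl4, 2.46 for Cers3, 1.48 for Abhd5, 1.10 for Slc27a4, 1.05 for Elovl1, 0.76 for Klf4 and 0.81 for Rxra, and none passed. NGO-treated against stripped control skin had -1.44 for Abca12, -0.39 for Elovl4, -2.90 for Cers3 (adjusted p = 0.0442), -1.44 for Abhd5, -0.21 for Slc27a4, -1.34 for Hsd17b12, -0.65 for Krtdap and -1.45 for Rxra. Against unstripped skin Cyp4f39 had 0.24 and Abhd5 0.040. Cers3 with NGO, near 0 to begin with, was at -0.15 with RLE, -0.073 with upper-quartile scaling, -0.0053 without a filter, -0.013 with the stricter filter, -0.15 with DESeq2, -0.0032 in the fit of the compared groups and between -0.52 and 1.80 without 1 library. Cyp4f39 against unstripped skin was at 0.019 with upper-quartile scaling, 0.051 without a filter, 0.15 with limma-voom, 0.022 in the fit of the compared groups and between -0.19 and 0.27 without 1 library, and Abhd5 at 0.033 with limma-voom and between -0.39 and 0.20. None of these passed except where a p is given or the report gives one.

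The labels state no pairing of the replicate numbers, and correlations between so few libraries cannot settle it. Deviations of same-numbered libraries correlated between -0.0573 and 0.0858, and those of differently numbered libraries between -0.135 and 0.0666. Of the 9 libraries, 5 correlated best with a library of their own number. With the replicate block 6, 5 and 1 of the 10 genes passed, and Alox12b after stripping (0.0767) and Pnpla1 with NGO (0.0615) missed the threshold, as did Alox5 after stripping (0.0745) and Cebpd against unstripped skin (0.0576). Over all genes the block gave 1650, 559 and 313 calls.

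Low counts limit Alox12b, Abca12 and Pnpla1 most, with 96 to 168 counts over the 3 unstripped libraries, and the wide spread of the stripped control libraries limits Cers3 and Abhd5.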

Other observations

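Of the 45 other barrier lipid genes tested, 3 were higher after stripping, a share close to the 5.97% of all genes. The sphingolipid genes among them, Sgms2 and Asah2, are named here after their values were seen. They moved the other way from the 10 acylceramide and lipoxygenase genes, and from other sphingolipid genes of the same list. Kdsr (log2 difference -2.19 ± 0.52, edgeR adjusted p = 0.0124), Sptssa (-2.44 ± 0.65, 0.0231), Cerk (-3.34 ± 0.94, 0.0314) and Sptlc1 (-1.59 ± 0.50, 0.0493) were lower after stripping. Values of these sphingolipid genes without 1 library or scaled to the panel are not given here. Sgms2, a sphingomyelin synthase, had 35.0 CPM on average in NGO-treated, 109 in stripped control and 23.0 in unstripped skin, and was higher after stripping by 2.25 ± 0.55 on the log2 scale (edgeR adjusted p = 0.0152). Asah2, a neutral ceramidase, averaged 345 CPM in NGO-treated, 712 in stripped control and 218 in unstripped skin, and was higher after stripping by 1.70 ± 0.45 (edgeR adjusted p = 0.0237). Neither passed with NGO against stripped control skin (-1.64 ± 0.54, edgeR adjusted p = 0.0972, and -1.04 ± 0.45, 0.196). Alox12, a platelet-type lipoxygenase, had 1 count over the NGO-treated libraries, 3 over the stripped control libraries and 83 over the unstripped libraries, and did not pass (edgeR adjusted p = 0.179 for NGO-treated and 0.158 for stripped control against unstripped skin).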
